A study of Mus musculus with 12 samples.

Results

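The transcripts of the mouse mitochondrial genome were followed in 3T3-L1 fat cells with raised or lowered Foxp1, a transcription factor. A gene was included if its Ensembl identifier carried a symbol starting with mt- in the GENCODE M21 annotation of build GRCm38. The annotation holds 37 such genes, of which 13 are mRNAs, 2 are rRNAs and 22 are tRNAs. The expression matrix listed 34 of them among 28948 genes, and mt-Tf, mt-Tg and mt-Th were not among its rows. A low-value filter of at least 1 RPKM in at least 3 libraries left 29 of the 34 for testing: all 13 mRNAs, both rRNAs and 14 tRNAs. RPKM counts reads per kilobase of a gene's exons, here relative to the reads of the library that were assigned to genes.

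3T3-L1 is a mouse embryo fibroblast line that becomes fat-cell-like under dexamethasone, isobutylmethylxanthine, insulin and, in these cultures, troglitazone. There were 4 groups of 3 RNA-seq libraries. Cells with constitutive overexpression of FOXP1 were set against cells with an empty vector, and cells with a Foxp1 shRNA, a short hairpin RNA that lowers its target, against cells with a scrambled shRNA. The labels give no strain difference or other treatment between groups, no promoter, no clone number and no day of harvest. They do not say what a replicate is, so p-values measure the spread between these libraries, which may be technical.

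A mitochondrion carries its own small circular genome. Both of its strands are transcribed into long precursors, and tRNAs that sit between most of the genes are cut out of them, which frees the rRNAs and mRNAs. The mRNAs encode core subunits of the respiratory chain and of the ATP synthase: Nd genes for complex I, Cytb for complex III, Co genes for complex IV and Atp genes for complex V. Nearly all of the energy-yielding machinery around them, and all of the proteins that transcribe and translate the mitochondrial genome, are encoded in the nucleus. Fat cells use their mitochondria for fatty acid oxidation, for lipid synthesis and, in thermogenic fat, for heat.

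The depth was 35252014 to 38450003 reads assigned to genes per library, and a single read on a 1 kilobase gene came to 0.0260 to 0.0284 RPKM. Foxp1 was at 5.78, 7.16 and 6.75 RPKM in overexpressing cells, against 1.83, 1.77 and 1.82 RPKM in empty vector cells. It was at 1.11, 1.14 and 1.07 RPKM with Foxp1 shRNA, against 2.23, 2.20 and 2.11 RPKM with scrambled shRNA, so the labels and the targeted gene went the same way in all 12 libraries. The summed level of 10 fat cell markers was 3590 to 3812 RPKM with overexpression, against 7956 to 8103 RPKM with empty vector. It was 8954 to 9532 RPKM with Foxp1 shRNA, against 6627 to 6844 RPKM with scrambled shRNA. The 5 preadipocyte markers summed to 104 to 109 RPKM with overexpression, against 96.8 to 108 RPKM with empty vector, and to 113 to 128 RPKM with Foxp1 shRNA, against 131 to 149 RPKM with scrambled shRNA. The 3 listed of 5 skeletal muscle markers summed to 36.2 to 42.2 RPKM with overexpression, against 12.5 to 13.7 RPKM with empty vector, and to 1.48 to 1.87 RPKM with Foxp1 shRNA, against 1.03 to 1.11 RPKM with scrambled shRNA. The 5 macrophage and 4 endothelial markers summed to at most 7.53 and 0.531 RPKM. No listed marker was at 0 in all libraries, and the part of these cell state differences in the results below was not tested. Overexpression replicate 3 stood apart from its group in most mitochondrial mRNAs, and mRNA calls that change without it are given with and without it.

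Several mitochondrial genes cannot be read on their own because they share bases with a neighbour or with a copy in the nuclear genome. The sequences shown here are examples of these limits and the tRNA that differed most between the control groups. All are from the GENCODE M21 transcripts (GRCm38), and mitochondrial positions are on the plus strand. mt-Nd5 and mt-Nd6, on opposite strands, also share 14 bases (chrM:13552-13565), which are not shown. The first pair is the start of mt-Nd3 and of Gm28438, its pseudogene at chr1:24612775-24613119 on the minus strand, with the base that differs in capitals.

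mt-Nd3: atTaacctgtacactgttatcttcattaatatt

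Gm28438: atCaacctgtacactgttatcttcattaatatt

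This difference, T3C counted from 1 at the first base of mt-Nd3, was the only one over 345 aligned of 348 bases, and the longest identical run was 342 bases. Reads from inside that run fit both places equally well. The next pair shows where neighbouring mRNAs overlap, with the bases that belong to both genes in capitals: mt-Atp8 with mt-Atp6 (chrM:7907-7989 is shown, and 43 bases are shared) and mt-Nd4l with mt-Nd4 (chrM:10147-10193 is shown, and 7 bases are shared).

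mt-Atp8/mt-Atp6: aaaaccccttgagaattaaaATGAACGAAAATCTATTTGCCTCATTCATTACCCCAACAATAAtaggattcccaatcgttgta

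mt-Nd4l/mt-Nd4: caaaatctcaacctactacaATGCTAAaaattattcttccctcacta

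The capitals open with the ATG of the downstream gene and close with the TAA that ends the upstream one. The last sequence is mt-Tl1, a leucine tRNA at chrM:2676-2750 that lies between mt-Rnr2 and mt-Nd1 and holds a binding site of the factor Mterf1 in mammals.

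mt-Tl1: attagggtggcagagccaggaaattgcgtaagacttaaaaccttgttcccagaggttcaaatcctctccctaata

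Mitochondrial transcripts took a larger share of the reads with overexpression than with empty vector, a larger share with Foxp1 shRNA than with scrambled shRNA, and a smaller share with scrambled shRNA than with empty vector. Their share of assigned reads was 9.98%, 9.63% and 13.1% in overexpressing cells, against 9.34%, 8.59% and 9.14% in empty vector cells. It was 6.81%, 6.23% and 5.96% with Foxp1 shRNA, against 5.61%, 4.79% and 5.68% with scrambled shRNA. The groups did not overlap in any of these comparisons, and each exact two-sided permutation test gave p = 0.1, the smallest that 3 against 3 libraries allow. The difference was 1.87 percentage points for overexpression minus empty vector, and 0.780 percentage points without overexpression replicate 3. It was 0.975 percentage points for Foxp1 shRNA minus scrambled shRNA and -3.67 percentage points for scrambled shRNA minus empty vector. The difference between the control groups was thus larger than either response to Foxp1. More mitochondrial RNA and less of all other RNA cannot be told apart from a share, nor can more mitochondria per cell from more RNA per mitochondrion. Wilson 95% intervals reached at most 0.0109 percentage points to either side of a library's share and cover counting error only.

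**Figure D1:**
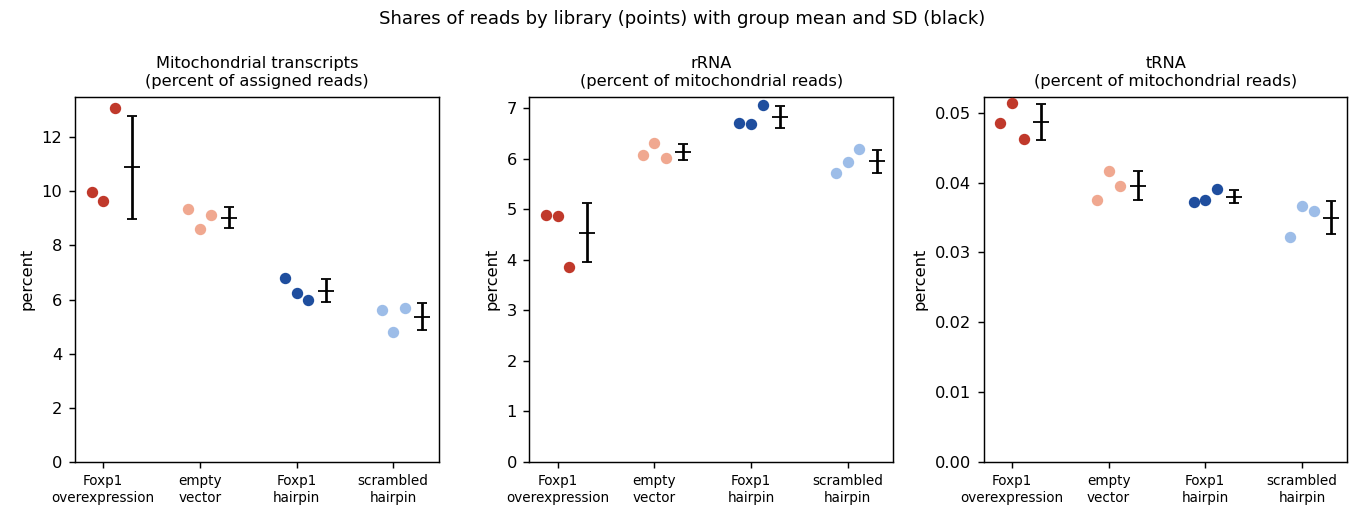
Share of reads per library (points) with the group mean and SD (black) for all mitochondrial transcripts as a percentage of assigned reads, and for rRNA and tRNA genes as a percentage of mitochondrial reads, in the 4 groups. The 3 overexpression libraries lie lowest for rRNA and highest for tRNA, and overexpression replicate 3 lies highest of all 12 for the mitochondrial share.

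The classes of transcript did not share the responses evenly. The rRNAs made up 4.54% ± 0.58 of mitochondrial reads with overexpression, against 6.14% ± 0.16 with empty vector (SD, n = 3 each). They made up 6.83% ± 0.21 with Foxp1 shRNA, against 5.95% ± 0.23 with scrambled shRNA. In both comparisons the groups did not overlap (exact permutation p = 0.1 each), and the directions were opposite. Scrambled shRNA and empty vector overlapped in this share, with a difference of -0.187 percentage points (exact permutation p = 0.4). In a further comparison the 7 mRNAs with an annotated copy of at least 100 bases on chromosome 1 were left out of the total. They include mt-Nd4 and mt-Co1, of which 63.6% and 31.3% of the length is copied. mt-Atp8 and the tRNAs stayed in the total, although copies of them are not excluded. mt-Co1 alone made up 38.0% of the summed RPKM of the 13 mRNAs with empty vector. The rRNA share was then 9.64% ± 1.47 with overexpression, against 12.5% ± 0.5 with empty vector. It was 13.3% ± 0.5 with Foxp1 shRNA, against 12.6% ± 0.5 with scrambled shRNA. The overexpression and empty vector groups still lay apart, and the Foxp1 shRNA and scrambled shRNA groups then overlapped (exact permutation p = 0.2). The tRNA genes held 0.0487% ± 0.0026 of mitochondrial reads with overexpression, against 0.0396% ± 0.0020 with empty vector, and 0.0380% ± 0.0009 with Foxp1 shRNA, against 0.0350% ± 0.0024 with scrambled shRNA. Those groups did not overlap either (exact permutation p = 0.1 each). The tRNA difference for Foxp1 shRNA, 0.003003 percentage points, was 0.001641 without scrambled replicate 1. Reads over a tRNA gene can come from the free tRNA or from an uncut precursor, and which of these they were was not tested.

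**Figure D2:**
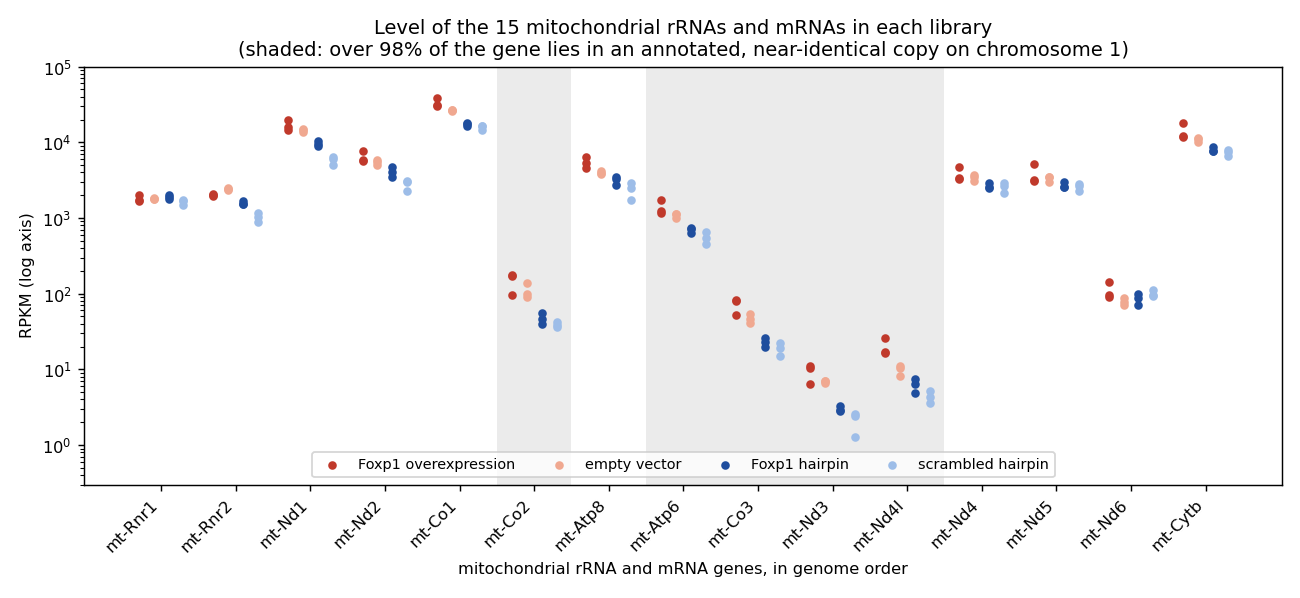
RPKM on a log axis of the 2 rRNAs and 13 mRNAs in genome order, 1 point per library, for the 4 groups. Grey marks the 5 genes with over 98% of their length in an annotated near-identical copy on chromosome 1; mt-Co2, mt-Co3, mt-Nd3 and mt-Nd4l sit far below their neighbours in all 12 libraries.

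The mRNAs spanned a wide range of levels per length. In empty vector cells mt-Co1, the catalytic subunit of complex IV, was highest at 26172 ± 586 RPKM, followed by the complex I subunit mt-Nd1 at 14450.4 ± 739 RPKM and the complex III subunit mt-Cytb at 10763 ± 708 RPKM (SD, n = 3). The complex I subunits mt-Nd2, mt-Nd4 and mt-Nd5 were at 5437 ± 412, 3416 ± 279 and 3306 ± 250 RPKM, where mt-Nd4 and mt-Nd5 differed by less than their spread. The ATP synthase subunits mt-Atp8 and mt-Atp6 were at 4005 ± 194.5 and 1077 ± 71 RPKM. The single mRNA of the minus strand, the complex I subunit mt-Nd6, was at 79.4 ± 8.7 RPKM. The complex IV subunits mt-Co2 and mt-Co3 were at 109 ± 24 and 47.0 ± 6.4 RPKM, and the complex I subunits mt-Nd3 and mt-Nd4l at 6.85 ± 0.24 and 9.88 ± 1.47 RPKM.

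Those last 4 genes, with mt-Atp6, lie in a stretch that is also annotated on chromosome 1 as a run of unprocessed pseudogenes. A BLAST search of the mitochondrial transcripts against all other annotated transcripts, with at least 95% identity over at least 100 bases, found 11 nuclear copies. The chromosome 1 copies Gm28661, Gm10925, Gm28437 and Gm10222 were 100% identical to mt-Co2, mt-Atp6, mt-Co3 and mt-Nd4l over 681 of 684, 678 of 681, 783 of 784 and 294 of 297 bases. Gm28439 was 100% identical to the first 876 of 1378 bases of mt-Nd4, and Gm29216 was 99.8% identical to the last 483 of 1545 bases of mt-Co1. Copies on chromosomes 2 and 13 were 95.2% to 97.6% identical to parts or the whole of mt-Nd2, mt-Co1, mt-Co2 and mt-Nd5. No annotated copy of mt-Nd1, mt-Atp8, mt-Nd6, mt-Cytb or either rRNA met these limits. The tRNA genes are shorter than 100 bases, so this search could not find copies of them. Sequence without annotated transcripts was not searched, such as that between Gm28661 and Gm10925, the copies of the neighbours of mt-Atp8. The 43 bases that mt-Atp8 shares with mt-Atp6 lie in the part that Gm10925 matches. The counting of reads with several matching places is not given in the sources used here, so the levels of mt-Co2, mt-Atp6, mt-Co3, mt-Nd3 and mt-Nd4l are uncertain, as are those of their copies. The same limit holds for the copied parts of mt-Nd4 and mt-Co1, and so for their levels and shares. It may also hold for mt-Atp8 and the tRNA genes, and so for their calls below.

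mt-Co2, mt-Co3 and mt-Nd4l were at levels near those of their copies, although the neighbouring mt-Co1 was at 14422 RPKM or more in every library. mt-Atp6 was 6.49 to 17.2 times its copy, and mt-Nd3 was 0.0766 to 0.357 times its copy. In overexpressing cells mt-Co2 was at 172, 176 and 95.1 RPKM and Gm28661 at 119, 118 and 71.7 RPKM, and in empty vector cells mt-Co2 was at 137, 91.3 and 99.9 RPKM and Gm28661 at 47.5, 40.9 and 46.0 RPKM. With Foxp1 shRNA mt-Co2 was at 46.1, 39.5 and 55.7 RPKM and Gm28661 at 30.19, 28 and 64.03 RPKM, and with scrambled shRNA they were at 39.04, 36.29 and 41.61 RPKM and at 27.78, 28.04 and 27.8 RPKM. The mitochondrial gene and its copy were thus within a factor of 3 of each other in every library, and overexpression replicate 3 was the lowest of its group for both.

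Gm28438, with its single differing base, exceeded mt-Nd3 in every library. It was at 36.1, 34.8 and 37.2 RPKM in overexpressing cells, against 21.7, 18.4 and 21.5 RPKM in empty vector cells, a difference of 0.78 on the log2 scale (limma adjusted p = 0.000188). mt-Nd3 was at 10.4, 11.1 and 6.32 RPKM in overexpressing cells, against 6.97, 6.58 and 7.01 RPKM in empty vector cells. The copy's groups lay apart, while those of mt-Nd3 overlapped through overexpression replicate 3 alone.

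Of all copies Gm29216, which matches the end of mt-Co1, set overexpression replicate 3 apart most clearly. It was at 212, 219 and 1014 RPKM in overexpressing cells, against 155, 89.3 and 108 RPKM in empty vector cells. Together the chromosome 1 copies held reads equal to 0.444% ± 0.079 of the mitochondrial reads with overexpression, against 0.212% ± 0.017 with empty vector (SD, n = 3 each; exact permutation p = 0.1, groups apart). With Foxp1 shRNA the value was 0.212% ± 0.044, against 0.187% ± 0.018 with scrambled shRNA, and these groups overlapped (exact permutation p = 0.5). Reads of the copies were therefore few beside all mitochondrial reads but not beside those of the 4 low genes.

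**Figure D3:**
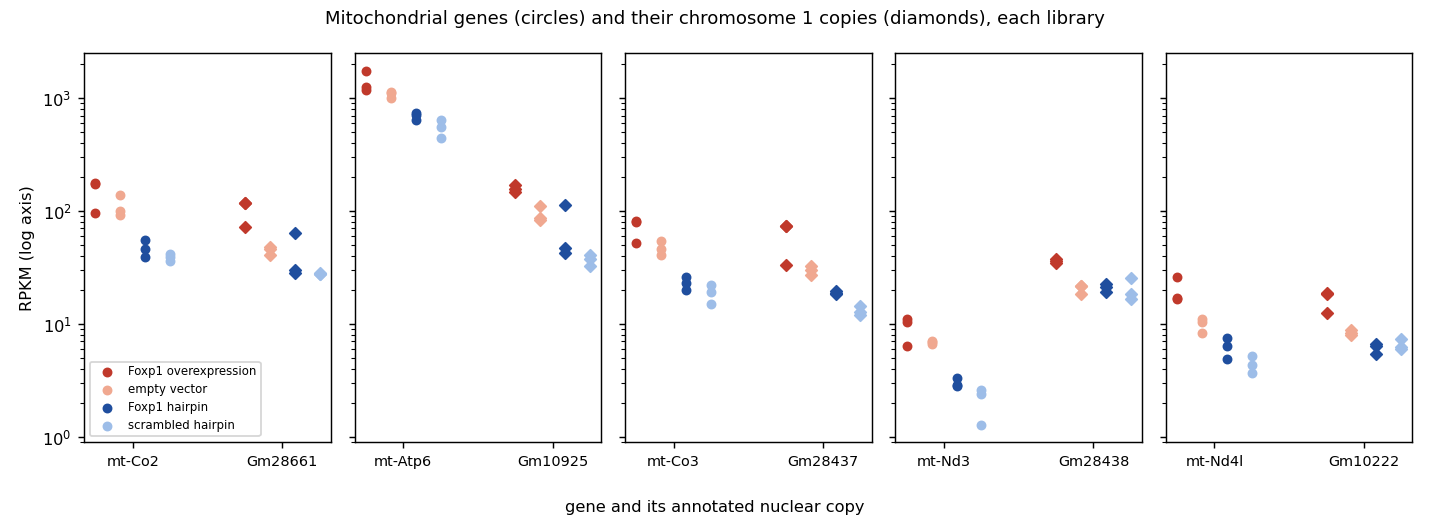
RPKM on a log axis of 5 mitochondrial mRNAs (circles) and their chromosome 1 copies (diamonds), 1 point per library, for the 4 groups. mt-Co2, mt-Co3 and mt-Nd4l lie close to their copies, mt-Atp6 lies above its copy, and mt-Nd3 lies below its copy in all 12 libraries.

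Overexpression was the first comparison tested gene by gene. With overexpression, 9 of the 29 tested members rose and 1 fell (limma on log2(RPKM + 1), Benjamini-Hochberg adjusted p under 0.05 over all 11245 genes). Over all genes tested 31.0% rose and 20.3% fell, so the count of rises was at the background. The median change of the members was 0.34 on the log2 scale, against 0.04 over all genes tested. By class, 4 of 13 mRNAs rose, 5 of 14 tRNAs rose and 1 of 2 rRNAs fell. All 13 mRNAs had a positive fitted change, including the 9 that did not pass, but leaving out overexpression replicate 3 turned mt-Nd4 to -0.025 and mt-Nd5 to -0.08. With no filter on low values mt-Co1, mt-Co3, mt-Nd6 and mt-Rnr2 lost their calls (limma adjusted p = 0.663, 0.0690, 0.120 and 0.0815).

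Among the mRNAs, mt-Co1 rose to 30713, 29904 and 38436 RPKM in overexpressing cells, against 26665, 25524 and 26328 RPKM in empty vector cells. All 3 overexpression libraries lay above the empty vector ones, and the change was 0.33 ± 0.09 on the log2 scale (SE; limma adjusted p = 0.0125), or 0.21 without overexpression replicate 3 (limma adjusted p = 0.0215). mt-Nd4l rose by 0.92 ± 0.18 (SE; limma adjusted p = 0.000974), at 16.6, 16.9 and 26.3 RPKM with overexpression, against 11, 10.4 and 8.21 RPKM with empty vector. mt-Co3 was at 82.1, 79.1 and 51.7 RPKM with overexpression, against 53.9, 41.1 and 46.2 RPKM with empty vector, so overexpression replicate 3 fell inside the empty vector range. Its change of 0.56 (limma adjusted p = 0.0197) did not pass without overexpression replicate 1 or 2 or without empty vector replicate 2 or 3 (limma adjusted p = 0.0785, 0.0762, 0.0765 and 0.0516).

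The minus strand mRNA mt-Nd6 was at 94.9, 90.1 and 142 RPKM with overexpression, against 71.9, 88.9 and 77.5 RPKM with empty vector. The groups lay apart by a small margin and the change was 0.43 ± 0.16 (SE; limma adjusted p = 0.0410). It was 0.22 without overexpression replicate 3 (limma adjusted p = 0.143), and the call was also lost without empty vector replicate 1 or 3 (limma adjusted p = 0.131 and 0.0966) and under TPM or median-ratio scaling (0.0640 and 0.0732). The strand setting of the counting is not given, so reads of mt-Nd6 cannot be told apart from reads of the opposite strand at that place.

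The other 9 mRNAs had changes of 0.14 to 0.41 that did not pass. mt-Cytb was at 12025 and 11643 RPKM in overexpression replicates 1 and 2 and at 18141 RPKM in replicate 3, against 11276, 9955 and 11056.5 RPKM with empty vector, with a change of 0.34 (limma adjusted p = 0.0587). It passed without overexpression replicate 1 or 2 (limma adjusted p = 0.0341 and 0.0239) and with voom (0.0495). Without overexpression replicate 3 its change was 0.14 (limma adjusted p = 0.168). mt-Atp8 and mt-Atp6 had changes of 0.41 and 0.34 (limma adjusted p = 0.0534 and 0.0689) and passed without overexpression replicate 2 (0.0323 and 0.0327). mt-Atp8 also passed with only these 6 libraries fitted, with voom and after scaling to reads outside the mitochondrial genome (limma adjusted p = 0.0220, 0.0367 and 0.0453). mt-Co2 and mt-Nd3, whose level was lowest in overexpression replicate 3, passed without that library, with changes of 0.69 and 0.58 (limma adjusted p = 0.00297 and 0.00581). When reads were summed over each member and its nuclear copies, an alternative chosen after seeing the data, mt-Co2, mt-Atp6 and mt-Nd3 passed (0.66, 0.38 and 0.71, limma adjusted p = 0.0270, 0.0406 and 0.000422).

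The rRNAs of the mitochondrial ribosome went a different way. The large-subunit rRNA mt-Rnr2 fell to 2061, 1937 and 1997 RPKM with overexpression, against 2464, 2362 and 2420 RPKM with empty vector, a change of -0.27 ± 0.08 (SE; limma adjusted p = 0.0135). The small-subunit rRNA mt-Rnr1 was at 1683, 1707 and 1989 RPKM with overexpression, against 1857, 1774 and 1755 RPKM with empty vector. It overlapped between the groups with a change of -0.01 (limma adjusted p = 0.957), which was 0.025 after scaling to reads outside the mitochondrial genome.

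The tRNAs that rose with overexpression were mt-Tl1 (leucine), mt-Tm (methionine), mt-Tw (tryptophan), mt-Tt (threonine) and mt-Tc (cysteine). mt-Tl1 was at 292, 313 and 390 RPKM with overexpression, against 225, 216 and 237 RPKM with empty vector, a change of 0.54 ± 0.09 (SE; limma adjusted p = 0.000416). mt-Tm averaged 140 ± 32 RPKM with overexpression, against 84.8 ± 8.0 RPKM with empty vector, and changed by 0.69 (limma adjusted p = 0.000460). mt-Tt averaged 53.9 ± 3.8 RPKM with overexpression, against 30.9 ± 5.2 RPKM with empty vector, and changed by 0.80 (limma adjusted p = 0.00280). These 3 tRNAs had groups that lay apart, as had mt-Tw and, narrowly, mt-Tc (at least 11.91 RPKM with overexpression, against at most 11.82 RPKM with empty vector). mt-Tw changed by 0.57 (limma adjusted p = 0.00699) and mt-Tc by 0.42 (limma adjusted p = 0.0130), the last of which did not pass without empty vector replicate 1 (0.0606) or with voom (0.103). Of these 5 genes mt-Tc alone lies on the minus strand. The 5 tRNAs that were listed but not tested, mt-Td, mt-Tk, mt-Tr, mt-Ts2 and mt-Tl2, had 1 to 2 reads each in all 12 libraries together.

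**Figure D4:**
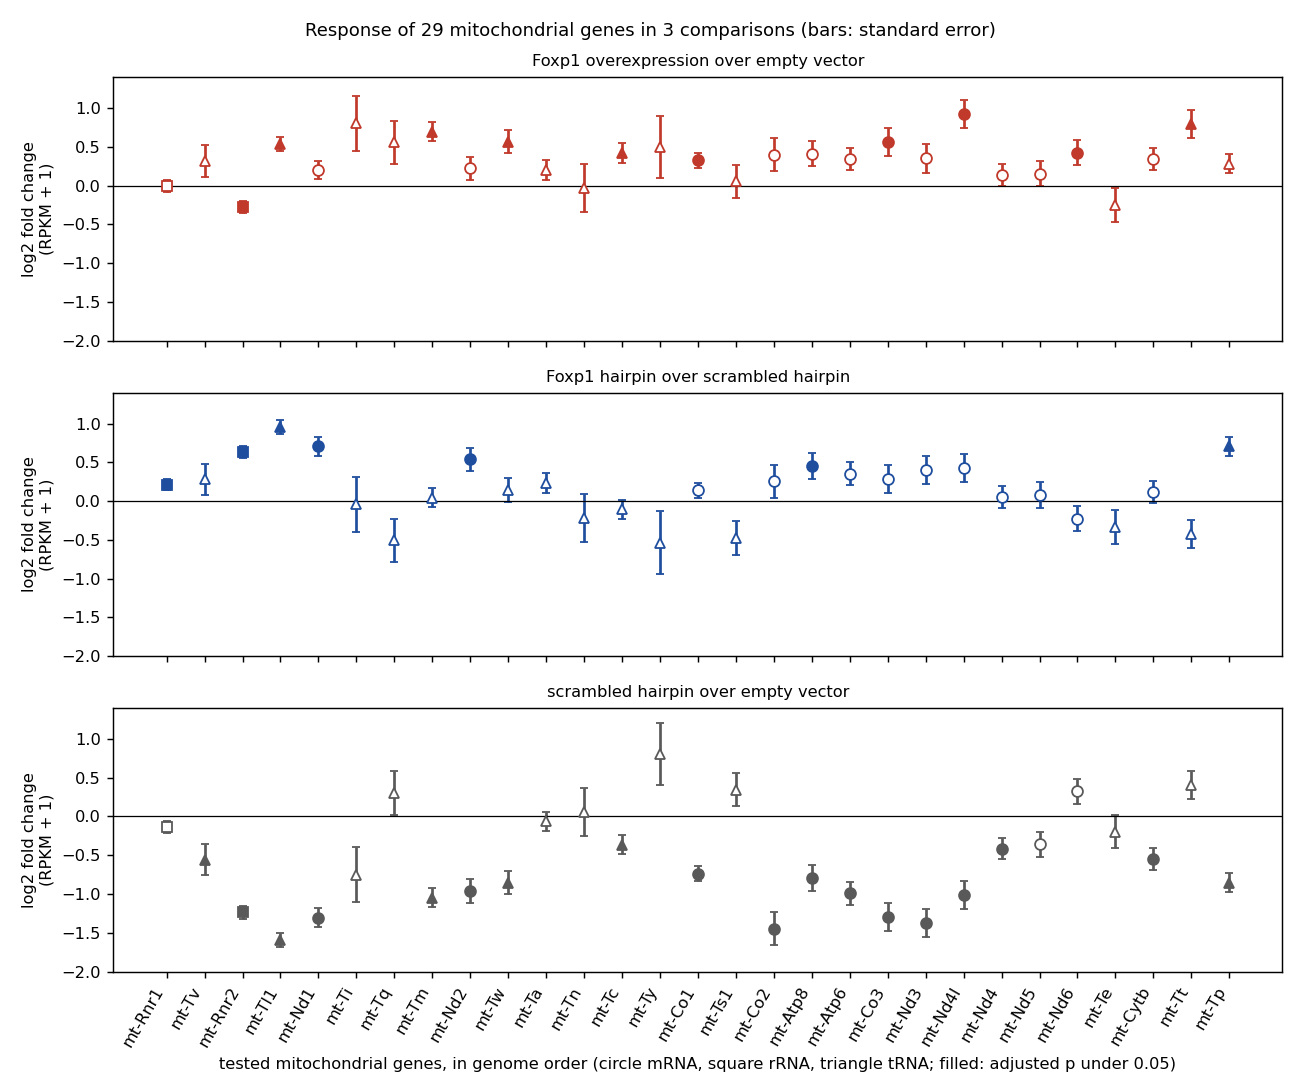
Log2 fold change on the log2(RPKM + 1) scale with its standard error for the 29 tested mitochondrial genes in genome order, for overexpression over empty vector, Foxp1 shRNA (hairpin) over scrambled shRNA, and scrambled shRNA over empty vector. Circles are mRNAs, squares rRNAs and triangles tRNAs, and filled symbols passed an adjusted p of 0.05; under Foxp1 shRNA 5 of the 7 filled symbols lie between mt-Rnr1 and mt-Nd2, with 4 open ones among them.

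With Foxp1 shRNA, 7 of the 29 members rose and 0 fell (limma, same threshold). Over all genes tested 18.7% rose and 31.0% fell. The median change of the members was 0.14 on the log2 scale, against -0.04 over all genes tested. At an unadjusted p under 0.05, 10 members were higher and 2 were lower, and voom on recovered reads called 8 and 0. Both rRNAs rose, 3 of 13 mRNAs rose and 2 of 14 tRNAs rose. With no filter on low values mt-Rnr1, mt-Nd1, mt-Nd2 and mt-Atp8 lost their calls (limma adjusted p = 0.181, 0.0976, 0.0982 and 0.186). The count of rises was 4 without Foxp1 shRNA replicate 1 or without scrambled replicate 2. The count of falls was 2 without Foxp1 shRNA replicate 1 and 1 without Foxp1 shRNA replicate 2, scrambled replicate 1 or scrambled replicate 2.

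Of the 7 rises, 5 were those of mt-Rnr1, mt-Rnr2, mt-Tl1, mt-Nd1 and mt-Nd2, which follow each other with only tRNAs between them. The tested tRNAs mt-Tv, mt-Ti, mt-Tq and mt-Tm of the same stretch did not pass, and whether the rises depend on position was not tested. mt-Rnr2 rose to 1688, 1550 and 1527 RPKM with Foxp1 shRNA, against 1016, 897 and 1176 RPKM with scrambled shRNA, a change of 0.63 ± 0.08 (SE; limma adjusted p = 5.3e-05). mt-Tl1 rose to 142, 143 and 150.0 RPKM with Foxp1 shRNA, against 72.0, 69.0 and 82.7 RPKM with scrambled shRNA, a change of 0.95 ± 0.09 (SE; limma adjusted p = 8e-06). mt-Nd1 rose to 10464, 9404 and 8804 RPKM with Foxp1 shRNA, against 6088, 5037 and 6479 RPKM with scrambled shRNA, a change of 0.71 ± 0.12 (SE; limma adjusted p = 0.000451). For all 3 genes each Foxp1 shRNA library lay above each scrambled one.

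mt-Nd2 rose by 0.54 (limma adjusted p = 0.0106), at 4754, 3994 and 3488 RPKM with Foxp1 shRNA, against 3118, 2284 and 3030 RPKM with scrambled shRNA. It just missed the threshold without Foxp1 shRNA replicate 1 or scrambled replicate 2 (limma adjusted p = 0.0506 and 0.0513). mt-Rnr1 rose by 0.21 (limma adjusted p = 0.0324), at 1992, 1796 and 1886 RPKM with Foxp1 shRNA, against 1679, 1494 and 1733 RPKM with scrambled shRNA. That call was lost without Foxp1 shRNA replicate 1 or 3 or scrambled replicate 1 or 2 (limma adjusted p = 0.117, 0.0708, 0.0512 and 0.142). The remaining calls were mt-Atp8, with a change of 0.45 (limma adjusted p = 0.0392), and the proline tRNA mt-Tp on the minus strand, with a change of 0.70 (limma adjusted p = 0.000568). mt-Tp averaged 37.8 ± 4.2 RPKM with Foxp1 shRNA, against 22.8 ± 2.9 RPKM with scrambled shRNA. mt-Atp8 overlapped between the groups and its change was 0.24 without scrambled replicate 2 (limma adjusted p = 0.172). It also missed the threshold without Foxp1 shRNA replicate 1 or 2 or scrambled replicate 3 (limma adjusted p = 0.131, 0.0937 and 0.0509), or with only these 6 libraries fitted (0.0530).

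The other mRNAs did not pass under Foxp1 shRNA. mt-Co1 was at 18076, 17279.5 and 16388 RPKM with Foxp1 shRNA, against 16347, 14422 and 16307 RPKM with scrambled shRNA, with a change of 0.14 (limma adjusted p = 0.250). mt-Nd4, mt-Nd5 and mt-Cytb had changes of 0.05, 0.08 and 0.12 (limma adjusted p = 0.764, 0.717 and 0.505). Leaving out a library turned mt-Nd4 to -0.01 (without Foxp1 shRNA replicate 1) or -0.07 (without scrambled replicate 2) and mt-Nd5 to -0.01 (without scrambled replicate 2). mt-Nd6 had a change of -0.23 (limma adjusted p = 0.264), the only mRNA with a negative value. mt-Co2, mt-Atp6, mt-Co3, mt-Nd3 and mt-Nd4l had changes of 0.25 to 0.42 that did not pass. mt-Atp6 passed without scrambled replicate 1 (limma adjusted p = 0.0231), and mt-Nd4l without Foxp1 shRNA replicate 3 or scrambled replicate 1 (0.0318 and 0.0485). Both passed with only these 6 libraries fitted (limma adjusted p = 0.0336 and 0.0303), and mt-Atp6 also with voom (0.0276) and with its reads summed with those of its copy (0.0386).

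The tRNAs as a class had a median change of -0.08 under Foxp1 shRNA, with fitted values from -0.54 to 0.95. The serine tRNA mt-Ts1 was at 9.66, 11.9 and 7.71 RPKM with Foxp1 shRNA, against 10.2, 17.4 and 14.5 RPKM with scrambled shRNA. The tyrosine tRNA mt-Ty was at 2.39, 0.790 and 1.98 RPKM with Foxp1 shRNA, against 3.13, 1.95 and 3.55 RPKM with scrambled shRNA. Both overlapped between these groups and did not pass in any of the 3 comparisons. Nor did the tRNAs mt-Ta (alanine), mt-Ti (isoleucine), mt-Te (glutamate) and mt-Tn (asparagine), which ranged from 6.11 to 10.2, 0.771 to 8.64, 0.385 to 1.97 and 0 to 1.53 RPKM over the 12 libraries.

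The responses to more and to less Foxp1 were then set against each other as the change with overexpression minus the change with Foxp1 shRNA. These comparisons share no library. The difference was positive and past the threshold for 5 of 29 members and negative for 3 (limma adjusted p under 0.05), against 34.6% and 20.3% of all genes tested. The count of positive differences was 2 without empty vector replicate 1 or scrambled replicate 2, and 3 without empty vector replicate 3 or Foxp1 shRNA replicate 3. mt-Rnr2 had a difference of -0.91 ± 0.11 (SE; limma adjusted p = 3e-05), being lower with overexpression and higher with Foxp1 shRNA. mt-Tl1 and mt-Nd1 had differences of -0.42 and -0.51 (limma adjusted p = 0.0183 and 0.0241), and mt-Tl1 had risen under both. The mt-Nd1 difference did not pass without overexpression replicate 2, empty vector replicate 1, Foxp1 shRNA replicate 1 or scrambled replicate 2 (limma adjusted p = 0.0604, 0.0551, 0.0606 and 0.0617).

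The positive differences were those of mt-Tt at 1.22 ± 0.25 (SE; limma adjusted p = 0.00152), mt-Tm at 0.65 (0.00692), mt-Tc at 0.53 (0.0220), mt-Tq at 1.07 (0.0369) and mt-Nd6 at 0.65 (0.0275). mt-Tq, the glutamine tRNA, had no called change in either comparison alone. The calls of mt-Tq, mt-Tc and mt-Nd6 were borderline, as leaving out any 1 of several libraries ended them. That of mt-Tq was lost without overexpression replicate 3, empty vector replicate 1, Foxp1 shRNA replicate 2 or 3, or scrambled replicate 2 or 3, with limma adjusted p of 0.0577 to 0.0897. That of mt-Tc was lost without empty vector replicate 1 or 3, Foxp1 shRNA replicate 1 or scrambled replicate 2, with limma adjusted p of 0.0529 to 0.0577. That of mt-Nd6 was lost without empty vector replicate 1 or 3, Foxp1 shRNA replicate 3 or scrambled replicate 2, with limma adjusted p of 0.0535 to 0.0710. Median-ratio scaling ended the calls of mt-Tq and mt-Nd6 (limma adjusted p = 0.0557 and 0.0606), voom those of mt-Tm and mt-Tc (0.0557 and 0.196), and no filter those of mt-Tl1, mt-Nd1, mt-Tq, mt-Tc and mt-Nd6 (0.0615 to 0.417).

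The control groups differed more in mitochondrial transcripts than either pair did. With scrambled shRNA, 0 of the 29 members were higher than with empty vector and 18 were lower (limma, same threshold), against 44.8% and 27.0% of all genes tested. The median member was at -0.74 on the log2 scale, against 0.09 over all genes tested. At an unadjusted p under 0.05, 1 member was higher and 19 were lower, and voom on recovered reads called 0 and 19. The count of higher members was 3 without empty vector replicate 2 and 1 without scrambled replicate 1 or 2. By class, 11 of 13 mRNAs, 1 of 2 rRNAs and 6 of 14 tRNAs were lower. This comparison shares the empty vector libraries with the overexpression comparison and the scrambled libraries with the Foxp1 shRNA comparison, and the design ties vector, hairpin and handling together so that they cannot be told apart.

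mt-Tl1 had the largest fitted difference, -1.59 ± 0.09 (SE; limma adjusted p = 1.5e-08), at 72.0, 69.0 and 82.7 RPKM with scrambled shRNA, against 225, 216 and 237 RPKM with empty vector. mt-Nd1 had a difference of -1.31 ± 0.12 (SE; limma adjusted p = 8.71e-07) and mt-Rnr2 of -1.24 ± 0.08 (SE; limma adjusted p = 3.8e-08). mt-Co1, mt-Cytb and mt-Nd4 had smaller differences of -0.74, -0.55 and -0.41, and the last did not pass without empty vector replicate 1 or scrambled replicate 2 (limma adjusted p = 0.0626 and 0.0845). The 3 members with over 70 RPKM in every library that did not pass were mt-Rnr1 at -0.14, mt-Nd5 at -0.36 and mt-Nd6 at 0.32 (limma adjusted p = 0.117, 0.0658 and 0.0865). In these 3 genes the control groups lay apart all the same, with mt-Nd6 higher with scrambled shRNA. mt-Rnr1 and mt-Nd5 passed under median-ratio scaling (limma adjusted p = 0.0364 and 0.0409) and mt-Nd6 under TPM scaling (0.0311). With no filter on low values mt-Co1, mt-Cytb, mt-Nd4, mt-Tc and mt-Tv did not pass (limma adjusted p = 0.224, 0.140, 0.0979, 0.0627 and 0.0849).

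The 5 genes with a near-identical chromosome 1 copy were lower with scrambled shRNA than with empty vector as well. mt-Co2, mt-Atp6, mt-Co3, mt-Nd3 and mt-Nd4l had differences of -1.45, -0.99, -1.29, -1.37 and -1.01. Their copies Gm28661, Gm10925, Gm28437, Gm28438 and Gm10222 had differences of -0.66, -1.31, -1.14, -0.04 and -0.32, of which the one of Gm28438 did not pass (limma adjusted p = 0.754). The tRNAs mt-Tm, mt-Tw and mt-Tp had differences of -1.05, -0.85 and -0.85 (limma adjusted p = 7.3e-06, 0.000229 and 5.08e-05). mt-Tc and mt-Tv, the valine tRNA, had differences of -0.37 and -0.56 (limma adjusted p = 0.0185 and 0.0260). The call of mt-Tc was lost without empty vector replicate 2 (-0.23, limma adjusted p = 0.0904) or scrambled replicate 1 or 3 (0.0649 and 0.0625), under TPM scaling (0.0585) and with voom (0.0758). That of mt-Tv, which rested on 32 reads in all 12 libraries, was lost without empty vector replicate 2 or 3 (0.0994 and 0.0680) or scrambled replicate 2 (-0.28, limma adjusted p = 0.111).

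Ratios inside the mitochondrial genome do not depend on how libraries are scaled to each other. mt-Nd1 made up 19.8% ± 0.5 of the summed RPKM of the 13 mRNAs with overexpression, against 21.0% ± 0.1 with empty vector, and 19.8% ± 0.2 with Foxp1 shRNA, against 14.7% ± 0.5 with scrambled shRNA (SD, n = 3 each). mt-Cytb made up 16.5% ± 0.7 with Foxp1 shRNA, against 18.4% ± 0.7 with scrambled shRNA, and mt-Nd4 5.51% ± 0.08, against 6.43% ± 0.34. The groups lay apart in each of these pairs (exact permutation p = 0.1 each). The scrambled shRNA group thus had the smallest mt-Nd1 share of all 4 groups, and the other 3 group means lay within 1.21 percentage points of each other.

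The ratios of mt-Nd1 to mt-Cytb and of mt-Rnr1 to mt-Rnr2 were chosen after the values had been seen and are given as descriptions. The level of mt-Nd1 over that of mt-Cytb was 1.31, 1.25 and 1.10 with overexpression, against 1.34, 1.37 and 1.32 with empty vector. It was 1.22, 1.24 and 1.13 with Foxp1 shRNA, against 0.816, 0.753 and 0.825 with scrambled shRNA. The level of mt-Rnr1 over that of mt-Rnr2 was 0.817, 0.882 and 0.996 with overexpression, against 0.754, 0.751 and 0.725 with empty vector, and 1.18, 1.16 and 1.24 with Foxp1 shRNA, against 1.65, 1.67 and 1.47 with scrambled shRNA. In this last ratio all 4 groups lay apart from each other, ascending from empty vector over overexpression and Foxp1 shRNA to scrambled shRNA.

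The strands were compared through mt-Nd6 as a percentage of the summed RPKM of the 12 plus strand mRNAs. It was 0.127% ± 0.010 with overexpression, against 0.116% ± 0.018 with empty vector, where the groups overlapped (exact permutation p = 0.4). It was 0.178% ± 0.025 with Foxp1 shRNA, against 0.254% ± 0.053 with scrambled shRNA, where they lay apart (exact permutation p = 0.1). That difference of -0.0760 percentage points was -0.0457 without scrambled replicate 2. Scrambled shRNA minus empty vector gave 0.138 percentage points (exact permutation p = 0.1). Among the tested tRNAs, 4 of 6 on the plus strand and 1 of 8 on the minus strand rose with overexpression, against 31.0% of all genes tested. With Foxp1 shRNA 1 of 6 and 1 of 8 rose, against 18.7% of all genes tested, and the difference between the strands was not tested. The 4 plus strand tRNAs that rose with overexpression had 1180 to 6505 reads in all 12 libraries together. The other plus strand tRNAs, mt-Ti and mt-Tv, had 112 and 32 reads. On the minus strand mt-Tp had 1158 reads and the others 24 to 414. The part of read numbers in these counts was not tested. The unknown strand setting limits the tRNA genes as it does mt-Nd6.

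**Figure D5:**
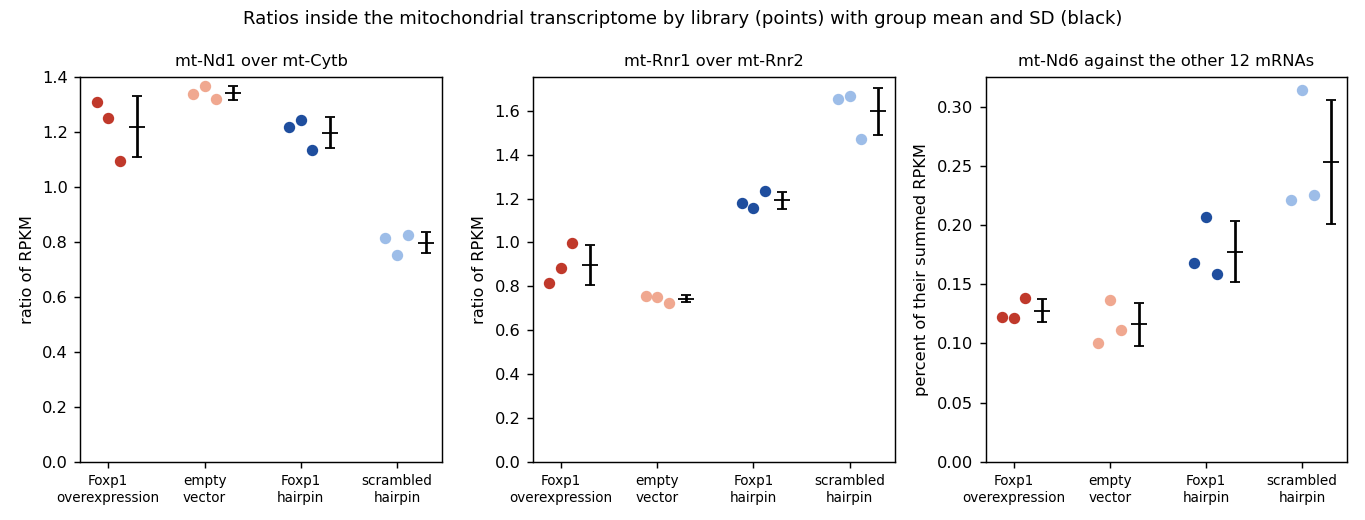
Ratios between mitochondrial transcripts per library (points) with the group mean and SD (black): mt-Nd1 over mt-Cytb and mt-Rnr1 over mt-Rnr2 as ratios of RPKM, and mt-Nd6 as a percentage of the summed RPKM of the other 12 mRNAs, in the 4 groups. The scrambled shRNA libraries lie lowest in the first panel and highest in the other panels.

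Nuclear genes that serve the mitochondrial genome moved in both directions. Of 40 listed genes for its transcription, RNA processing and DNA maintenance, 39 were tested. With overexpression 8 of them rose and 3 fell (limma adjusted p under 0.05), where 31.0% and 20.3% of all genes tested did. With Foxp1 shRNA 11 rose and 7 fell, where 18.7% and 31.0% of all genes tested did. Their median changes were 0.04 and 0.02 on the log2 scale, against 0.04 and -0.04 over all genes tested. With overexpression Tfb2m, the transcription initiation factor that works with the mitochondrial RNA polymerase, rose to 16.6 ± 0.2 RPKM, against 12.9 ± 0.2 RPKM with empty vector. Hsd17b10, a dehydrogenase that is also a subunit of the RNase P that cuts tRNA 5′ ends, fell to 97.0 ± 3.4 RPKM, against 144 ± 5 RPKM with empty vector, a change of -0.57 (limma adjusted p = 2.64e-07). Fastkd1, Grsf1 and Fastk, which act on mitochondrial RNA, rose by 0.35, 0.24 and 0.21 (limma adjusted p = 6.39e-05, 0.000207 and 0.000932).

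With Foxp1 shRNA Grsf1, an RNA-binding protein of mitochondrial RNA granules, fell to 74.2 ± 1.4 RPKM, against 103.5 ± 2.4 RPKM with scrambled shRNA, a change of -0.47 (limma adjusted p = 1.65e-06). Fastk and the primase-polymerase Primpol fell by 0.34 and 0.32 on the log2 scale (limma adjusted p = 2.62e-05 and 0.000130). Tbrg4, which stabilises several mitochondrial mRNAs, and the oligoribonuclease Rexo2 rose by 0.31 and 0.39 (limma adjusted p = 7.15e-05 and 0.000134). The response difference was past the threshold for 8 of the 39 genes upward and 10 downward (34.6% and 20.3% of all genes tested), led by Grsf1 at 0.71 and Hsd17b10 at -0.65. With scrambled shRNA 9 were higher and 16 lower than with empty vector (44.8% and 27.0% of all genes tested), and their median difference was -0.09, against 0.09 over all genes tested. The higher ones included Grsf1, Fastk, Primpol, the poly(A) polymerase Mtpap and Tfam, which packages the mitochondrial DNA and helps to start its transcription. These were the genes of smallest adjusted p. The 16 lower ones included Polrmt, Tfb2m, Lrpprc and Polg, at -0.19, -0.13, -0.36 and -0.39 (limma adjusted p = 0.00842, 0.00683, 0.000178 and 0.000155). Tfam was at 8.397 ± 0.211 RPKM with scrambled shRNA, against 6.02 ± 0.36 RPKM with empty vector (limma adjusted p = 4.29e-05).

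Another list held 77 genes with symbols starting with Mrpl or Mrps, the naming of mitochondrial ribosomal proteins, and 76 were tested. They were taken by symbol alone, and whether each protein is part of the ribosome was not checked. With overexpression 19 rose and 7 fell (limma adjusted p under 0.05), where 31.0% and 20.3% of all genes tested did. With Foxp1 shRNA 13 rose and 12 fell, where 18.7% and 31.0% did. With scrambled shRNA 30 were higher and 18 lower than with empty vector, where 44.8% and 27.0% were. Their median changes were 0.05, 0.01 and 0.05 on the log2 scale, near the 0.04, -0.04 and 0.09 of all genes tested. Mrps36, Mrpl44 and Mrpl52 rose by 0.47, 0.40 and 0.34 with overexpression (limma adjusted p = 1.77e-05, 2.36e-05 and 0.000135). Mrpl45 and Mrpl38 fell by 0.23 and 0.23 on the log2 scale (limma adjusted p = 0.000227 and 0.000452). With Foxp1 shRNA Mrps6, Mrpl20 and Mrpl49 rose by 0.50, 0.43 and 0.23 and Mrps36 and Mrpl24 fell by 0.31 and 0.23 on the log2 scale, with limma adjusted p of 1.87e-05 to 0.000884.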

How the data were processed

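RNA of 12 3T3-L1 libraries (4 groups of 3, grouped by the labelled expression construct) was measured by RNA-seq. The authors deposited RPKM per gene, here found to be divided by 1000 and multiplied back. Per the submitters' processing notes HISAT2 2.1.0 and featureCounts of Subread 1.5.3 were used with build mm10; their settings, strand and multi-match handling are not given in the sources used here. Symbols came from GENCODE M21 for 28896 of 28948 identifiers. Values times exon length were whole reads within 0.05 for 98.8% to 98.9% of values, and these recovered reads gave the depths and the shares.

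The test was limma 3.58.1 (R 4.3.3, trend, 1 model of 4 groups) on log2(RPKM + 1), which understates changes of low genes, for the 11245 genes that reached 1 RPKM in 3 or more libraries, with Benjamini-Hochberg adjustment. Single values per library were compared by exact permutation tests (scipy 1.17.1). The script was tested on simulated data. Nuclear copies were found with BLAST 2.17.0. Alternatives were other pseudocounts, no filter, 3 scalings, only the libraries compared, a replicate block, limma's voom on recovered reads, and leaving out each library.

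All mRNAs, rRNAs and tested tRNAs are named by rule, and up to 5 genes per nuclear list and comparison by smallest adjusted p. Polrmt, Tfb2m, Lrpprc and Polg were added outside that rule for scrambled shRNA against empty vector. The members and lists were chosen with earlier results of these data known. Over all genes 3490 rose and 2285 fell with overexpression (2426 and 2566 under TPM scaling), 2100 rose and 3487 fell with Foxp1 shRNA, the response difference was positive for 3888 and negative for 2285 (3149 and 2909 under median-ratio scaling), and 5037 were higher and 3033 lower with scrambled shRNA than with empty vector (4184 and 3780 under median-ratio scaling).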

Additional observations from a re-analysis of the deposited data

How the results depend on the processing

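Each fold change was set against each of its alternatives, so that 1 fold change gave many pairs. Of these pairs 982 kept the direction and the side of the threshold, 74 lost and 31 gained a call, and 9 changed sign. The pairs cover rRNAs and mRNAs in the 3 comparisons of groups, but tRNAs and response differences only where called. Calls gained by other tRNAs or response differences are therefore not among the 31. With no filter on low values, 0 members fell with overexpression and 3 rose with Foxp1 shRNA. The response difference was positive for 2 and negative for 1, and 1 member was higher with scrambled shRNA than with empty vector. Over all 28948 genes of that fit, 3057 fell with overexpression and 2292 rose with Foxp1 shRNA. The response difference was positive for 4287 and negative for 2961 of them, and 5836 were higher with scrambled shRNA. Under TPM scaling 1 member fell with Foxp1 shRNA and 2 were higher with scrambled shRNA (3724 and 5678 of all 11245 genes tested). When only the libraries compared were fitted, 2 members were higher with scrambled shRNA (5315 of all genes tested). The response difference was positive for 3 members under median-ratio scaling and for 3 with voom (3149 and 3383 of all genes tested). The cause was not tested. Measured as a share of summed RPKM, where short genes weigh more, the mitochondrial differences were 3.69 percentage points for overexpression minus empty vector, 2.52 for Foxp1 shRNA minus scrambled shRNA and -8.47 for scrambled shRNA minus empty vector. Without the 7 mRNAs that have an annotated copy of at least 100 bases on chromosome 1, mt-Co1 among them, the rRNA share differed by -2.89 points for overexpression. For scrambled shRNA minus empty vector it differed by 0.0464, a change of sign. The smaller denominator raises all of these shares.

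With each library left out in turn, 7 to 11 members rose and 1 fell each time with overexpression, and 4 to 8 rose and 0 to 2 fell with Foxp1 shRNA. The response difference was positive for 2 to 6 and negative for 2 to 4, and 0 to 3 were higher and 16 to 18 lower with scrambled shRNA. Over all 11245 genes tested, 2921 to 4020 then rose and 2018 to 2261 fell with overexpression. With Foxp1 shRNA 1724 to 2019 of all genes rose and 2972 to 3331 fell. The response difference was positive for 3573 to 4401 of all genes and negative for 2063 to 2333. With scrambled shRNA 4714 to 4795 of all genes were higher and 2769 to 2886 lower. The mitochondrial share differed by 0.780 to 2.51, 0.689 to 1.16 and -3.88 to -3.38 points for overexpression, Foxp1 shRNA and scrambled shRNA minus empty vector. The rRNA share differed by -1.77 to -1.26, 0.752 to 0.991 and -0.305 to -0.0746 points in the same order, the tRNA share by 0.00780 to 0.0103, 0.00164 to 0.00385 and -0.00564 to -0.00326, and the mt-Nd6 percentage by 0.00366 to 0.0216, -0.0921 to -0.0457 and 0.107 to 0.153. The log2 changes with overexpression ranged from -0.083 to 0.038 for mt-Rnr1 (0.025 after scaling to reads outside the mitochondrial genome), -0.025 to 0.239 for mt-Nd4 and -0.080 to 0.288 for mt-Nd5, and those with Foxp1 shRNA from -0.066 to 0.142 for mt-Nd4 and -0.011 to 0.149 for mt-Nd5.

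Replicate numbers did not pair the libraries: deviations from the group means correlated at -0.0132, 0.118 and 0.0806 for the same number in overexpression and empty vector, and at -0.0727, 0.0492 and -0.0595 in Foxp1 shRNA and scrambled shRNA, and not every library correlated best with its own number. With a replicate block 11 members rose with overexpression and 7 with Foxp1 shRNA (3531 and 2143 of all 11245 genes tested). In that fit mt-Nd6 lost its call with overexpression (limma adjusted p = 0.0538), while mt-Atp8 and mt-Cytb gained one (0.0368 and 0.0342). The 5 untested tRNAs had at most 2 reads each over all libraries, for a cause that was not tested, and 3 reads in a tRNA gene were worth 1.04 to 1.44 RPKM.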
